A study of Homo sapiens with 6 samples.

Results

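The cytosolic ribosomal protein genes were followed through 4 lists of ChIP-seq peaks from HSC3 cells, an oral squamous cell carcinoma (OSCC) cell line. They were taken from the GENCODE annotation of GRCh37 by their symbols, as protein-coding genes named RPL or RPS plus a number, RPLP0, RPLP1, RPLP2 or RPSA, without RPS6K genes and pseudogenes. The rule gave 90 genes among 20176 protein-coding genes. Of these, 3 were read-through genes that share a start with RPL17, RPL36A or RPS10, and 2 lay on chromosome Y, and both kinds were left out. The remaining 85 genes, of 20098 on chromosomes 1 to 22 and X, encode 53 proteins of the large subunit, the 3 stalk proteins among them, and 32 of the small subunit. They lie on 21 chromosomes, with 12 of them on chromosome 19.

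HSC3 cells had received a control siRNA (siCONT) or an siRNA against the long noncoding RNA DLEU1 (siDLEU1) for 72 h, and chromatin was precipitated with an antibody to H3K27ac or to H3K4me3. Each siRNA and mark had 1 library, and a single siRNA and a single cell line stand for the knockdown. The differences between siRNAs therefore carry no measure of spread between libraries and were not tested. Counts and medians over the ribosomal protein genes are set beside the same over all protein-coding genes. The peak lists held 19705 and 17672 H3K27ac regions in siCONT and siDLEU1 cells, and 58582 and 56943 H3K4me3 regions. The reads behind them, recovered from the lists themselves, came to 21.5 and 29.4 M for H3K27ac and to 28.4 and 22.3 M for H3K4me3. Markers of squamous epithelium had an H3K27ac region at 10 of 10 genes in siCONT cells. Of 8 markers of blood, fibroblasts, endothelium and liver, 1 had such a region, the collagen gene COL1A1.

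The ribosome is built from ribosomal RNA and one copy of most of these proteins, so their genes are expressed together and at high levels in growing cells. Their mRNAs typically begin with a C followed by a run of C and T, the terminal oligopyrimidine (TOP) motif, through which mTOR signalling controls their translation. H3K4me3 marks active promoters, and H3K27ac marks active promoters and enhancers. At an active promoter both marks lie on the nucleosomes on either side of a gap at the transcription start site (TSS), with the larger share usually downstream.

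The start sequences are shown for 4 genes with their duplicates (paralogs), and for RPL19 and RPSA, which had the largest fall in H3K27ac rank and the largest rise in H3K4me3 rank. Each window holds 35 bases before and 25 bases from the annotated first base of the canonical transcript, 5′ to 3′ on the transcribed strand, and capitals mark the first 5 transcribed bases.
RPL10: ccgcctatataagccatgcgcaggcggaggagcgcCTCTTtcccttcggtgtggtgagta
RPL10L: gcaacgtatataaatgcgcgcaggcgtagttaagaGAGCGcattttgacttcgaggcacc
RPL39: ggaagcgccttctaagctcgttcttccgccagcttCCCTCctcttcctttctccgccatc
RPL39L: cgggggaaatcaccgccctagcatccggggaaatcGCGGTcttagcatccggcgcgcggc
RPL22: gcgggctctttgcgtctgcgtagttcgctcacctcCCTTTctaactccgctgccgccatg
RPL22L1: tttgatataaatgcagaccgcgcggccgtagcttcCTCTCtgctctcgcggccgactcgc
RPS27: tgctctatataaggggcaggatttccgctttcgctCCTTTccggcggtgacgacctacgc
RPS27L: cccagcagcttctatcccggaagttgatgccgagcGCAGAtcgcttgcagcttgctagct
RPL19: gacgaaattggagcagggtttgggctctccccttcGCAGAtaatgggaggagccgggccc
RPSA: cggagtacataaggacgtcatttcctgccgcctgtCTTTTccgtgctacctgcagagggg

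In GRCh37 these windows are chrX:153626683-153626742 (plus strand) for RPL10 and chr14:47120960-47121019 (minus) for RPL10L. They are chrX:118925569-118925628 (minus) for RPL39, chr3:186857260-186857319 (minus) for RPL39L, chr1:6259631-6259690 (minus) for RPL22 and chr3:170587960-170588019 (minus) for RPL22L1. The others are chr1:153963203-153963262 (plus) for RPS27, chr15:63449652-63449711 (minus) for RPS27L, chr17:37356501-37356560 (plus) for RPL19 and chr3:39448176-39448235 (plus) for RPSA. The 25 transcribed bases lie in the first exon in 9 of the 10 windows. In RPL10 the first exon has 18 bases, and the window runs into the first intron.

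RPL10, RPL39, RPL22, RPS27 and RPSA start with a C and 4 more pyrimidines. RPL10L, RPL39L and RPS27L start with a purine, whereas the paralog RPL22L1 has a TOP start of its own. RPL19 is annotated to start on a G directly after a pyrimidine run, so a start that is off by a few bases changes the match. Over all 85 genes, 59 (69.4%) began with a C and at least 4 more pyrimidines, against 4.60% of 19819 protein-coding genes and 6.41% of 78 mitochondrial ribosomal protein genes. With a start allowed up to 5 bases away, the counts were 69 genes (81.2%) and 21.8% of all genes.

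Other promoter letters were searched over 250 bases before and 50 bases after the annotated start. TATA between 40 and 15 bases before the start was found in 17 genes (20%), RPL10, RPL3 and RPS27 among them, against 8.07% of all genes. CCGGAAG on either strand, the core of ETS-family sites, was found in 30 (35.3%) against 14.1% of all genes and 41.0% of the mitochondrial ribosomal protein genes. AAGATGG on either strand, a core bound by YY1, was found in 15 (17.6%) against 6.43% and 32.1%, respectively. GGGCGG on either strand was found in 60% against 61.5%, and CACGTG in 7.06% against 8.76%. Matches of different motifs could overlap, and a match describes the sequence and not binding. The median G and C content was 60% against 63.7%. Over 12247 genes with an H3K4me3 region in siCONT cells, GGGCGG was found in 73.8%, CACGTG in 10.2% and TATA in 4.61%. CCGGAAG was found there in 20.4% and AAGATGG in 7.98%, and the median G and C content was 66%.

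An H3K27ac region lay within 1 kb of a TSS of 83 of the 85 genes in siCONT cells and of 83 in siDLEU1 cells, against 61.5% and 58.5% of all protein-coding genes. An H3K4me3 region was likewise present at 83 genes in each condition, against 61.2% and 60.8%. All 78 mitochondrial ribosomal protein genes had a region of each mark in each condition. So did all 15 other TOP genes, such as translation elongation factor genes. Of the 85 genes, the 2 without a region within 1 kb in any of the 4 lists were RPL10L and RPL3L. These paralogs of RPL10 and RPL3 are known from testis and from heart and skeletal muscle, respectively. Within 2 kb downstream of its canonical TSS, however, RPL3L had H3K4me3 cover of 837 bp in siCONT and 679 bp in siDLEU1 cells. Each of the 83 others had its own strongest region in every list, and no strongest region was shared.

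The strength of a region is given as the percentile of its fold enrichment within its own list, since fold enrichment is not comparable between lists. In siCONT cells the median percentile of the strongest H3K27ac region was 80.8 among the 83 genes, against 71.4 among all genes with a region. The strongest H3K4me3 region had a median percentile of 87.5 against 83.2, and 87.4 with the genes without a region counted as 0. Over the 78 mitochondrial ribosomal protein genes the medians were 79.0 for H3K27ac and 85.6 for H3K4me3. Over the 15 other TOP genes they were 86.8 and 92.7, and over 20 ribosome biogenesis genes 72.9 and 79.3. High percentiles were thus not particular to the 83 genes. Of the 83 genes, 22 had an H3K27ac percentile over 90 in siCONT cells (18.9% of all genes with a region) and 20 in siDLEU1 cells (17.5%). Large-subunit and small-subunit genes were close in H3K27ac, with medians of 81.7 and 80.5 in siCONT cells, and the medians for H3K4me3 were 88.5 and 83.4. The 29 genes that host the 60 snoRNA genes in their introns had median percentiles of 85.3 for H3K27ac and 91.6 for H3K4me3, against 80.5 and 85.4 in the 54 genes with a region and no snoRNA.

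RPS29, a small-subunit protein, had the strongest H3K27ac region of the 85 genes, at percentile 99.99 with 248 fragments at the summit and 4607 bp covered in 3 regions. RPL22 at percentile 98.9 and RPL21 at 98.6 followed. For H3K4me3, RPL19 stood at 99.7, RPLP2 at 99.6 and RPL7 at 99.3. The stalk proteins RPLP0, RPLP1 and RPLP2, which recruit elongation factors to the ribosome, had H3K27ac percentiles of 92.7, 87.1 and 97.0 in siCONT cells.

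The 14 genes that start within 1 kb of a protein-coding gene on the opposite strand had median percentiles of 87.9 for H3K27ac and 93.2 for H3K4me3, against 79.7 and 84.9 in the 69 others with a region. Regions at such shared promoters cannot be assigned to either gene. The shortest gaps were 87 bp between RPL7A and MED22, 104 bp between RPL12 and LRSAM1, and 117 bp between RPS28 and a gene without a symbol of its own.

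In siDLEU1 cells the H3K27ac percentile was lower at 47 of the 83 genes (62.4% of all genes with a region) and higher at 36. The median change was -1.24 points, against -4.32 points over all genes. A fall of 10 points or more was seen at 25 genes (30.1%), against 36.1% of all genes, and a rise of 10 points or more at 12 (14.5%), against 16.8%. A region missing in siDLEU1 cells counts as percentile 0, which lowers the values over all genes and touches none of the 83. Among all genes with a region in both lists, 4027 of 11726 fell by 10 points or more. By this rank the ribosomal protein genes were thus close to the background. With equal numbers of regions taken from both lists, the median change was 0.35 points, so its direction depends on that choice. In a stricter list (−log10 q of 10 or more) it was -8.00 points. There 82 genes had a region in siCONT and 77 in siDLEU1 cells, and a lost region counts as 0. Neither alternative was computed over all genes.

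The largest fall in H3K27ac was at RPL19, a large-subunit protein, from percentile 96.3 to 18.97. RPL37A went from 79.5 to 33.4, RPS20 from 61.8 to 20.3, RPL39 from 87.6 to 53.8, and RPS27A, which is made as a fusion with ubiquitin, from 95.3 to 61.9. The largest rises were at RPL18, from 40.6 to 86.8, RPS24, from 15.4 to 55.4, RPS3, from 28.1 to 65.2, RPL4, from 62.6 to 86.8, and RPL36A, from 18.9 to 35.2.

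**Figure D1:**
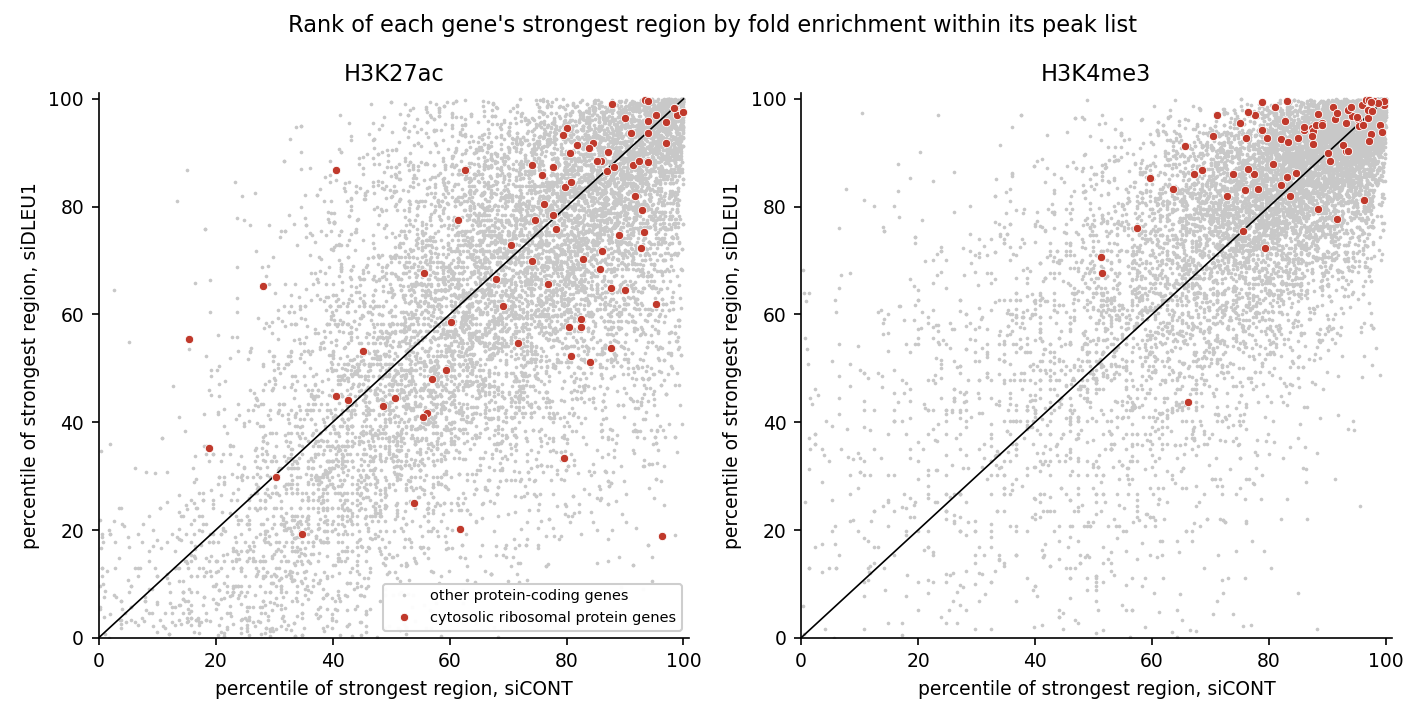
Percentile of the strongest region of each gene within its list in siCONT cells (x axis) and siDLEU1 cells (y axis), for H3K27ac (left) and H3K4me3 (right). Red points are the ribosomal protein genes, grey points the other protein-coding genes with a region in both lists, and the line marks equal percentiles. For H3K27ac the red points lie on both sides of the line (47 genes lower, 36 higher), and for H3K4me3 63 of 83 lie above it.

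Fold enrichment divides the fragments at the summit, scaled to the input, by a local background from the input reads, after a constant is added to each. With that constant, fold changes less than in proportion to the background. The background is small here. Its floor was 0.497 input fragments in the siCONT and 0.439 in the siDLEU1 H3K27ac list, so that a single input fragment at the summit raises it about 2-fold. At RPL19 it went from the floor to 3 input fragments, while the summit held 147 fragments in siCONT and 102 in siDLEU1 cells. Scaled to depth, the ratio of these counts was 0.507. At RPL18 the background went from 2 input fragments to the floor, with 105 and 94 summit fragments, a depth-scaled ratio of 0.654. At RPS3 it went from 3 to 0.528, with 103 and 74. The counts themselves are not scaled to depth, and the siDLEU1 library was the deeper one. Of the 25 genes lower by 10 points or more, 14 had a local background at least 1.5-fold higher in siDLEU1 cells, relative to the floor of each list. Among all genes that fell so and had a region in both lists, 52.4% did. Of the 12 genes higher by 10 points or more, 9 had a background at least 1.5-fold lower, against 70.2% of all genes that rose so. Of the 46 genes within 10 points, 2 had a higher background, against 6.79% of all such genes, and 8 a lower one, against 16.6%. The ribosomal protein genes were thus close to the other genes in how the local background moved with rank. Ranked by summit fragments alone, RPL19 changed by -9.37 points, RPL18 by 5.56 points and RPS3 by -12.5 points. Of the other large falls, RPL37A changed by -25.9 points, RPS20 by -11.7, RPL39 by -12.2 and RPS27A by -13.6. Of the other large rises, RPS24 changed by 9.90 points, RPL4 by 4.25 and RPL36A by -12.4.

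RPL9 went from percentile 80.8 to 52.2 with the local background at the floor in both lists. Its summit held 106 and 58 fragments, a depth-scaled ratio of 0.400. RPL7 went from 89.96 to 64.5, with 133 and 69 summit fragments, a depth-scaled ratio of 0.379. Its strongest regions in the 2 lists, however, were different regions that did not overlap.

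**Figure D2:**
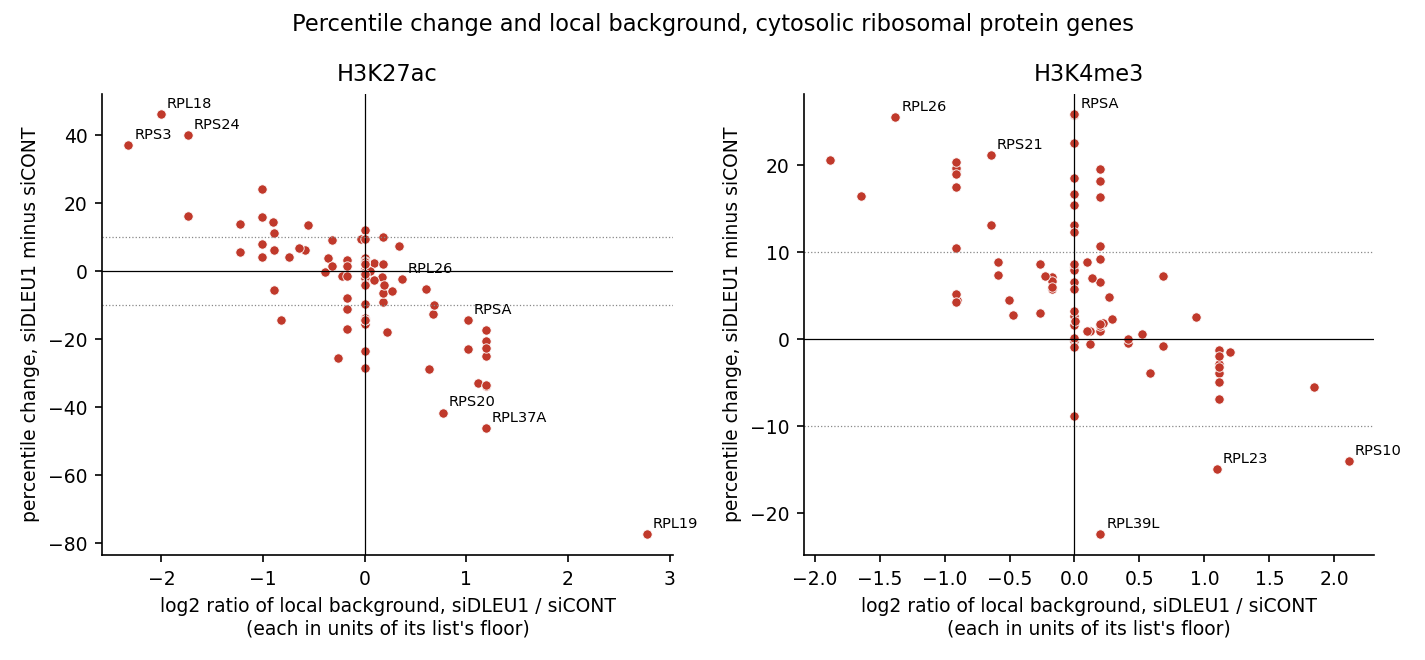
Change in percentile from siCONT to siDLEU1 cells (y axis, points) against the log2 ratio of the local background from the input, each in units of its list's floor (x axis), for H3K27ac (left) and H3K4me3 (right), 1 point for each of 83 genes. Dotted lines mark 10 points. RPL19 and RPL37A fell where the background rose, and RPL18, RPS24 and RPS3 rose where it fell.

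Fragments at the summit, recovered as whole numbers and scaled to 1000000 reads, do not contain the local background. For H3K27ac the median was 120 fragments in siCONT cells, with a range of 39 to 248, and 94 in siDLEU1 cells, with a range of 34 to 162. A single gene with 120 fragments has an exact 95% Poisson interval of 99.5 to 143, and one with 94 of 76.0 to 115. These intervals give the counting error of a single gene and not the precision of the medians. Scaled to depth the medians were 5.59 and 3.20. The ratio of siDLEU1 to siCONT was under 1 at 83 of 83 genes, against 99.2% of all genes, with a median of 0.576 against 0.580. It was down at least 1.5-fold at 75 genes (90.4%), against 80.9%, and up as much at 0 genes, against 0.0597%. The depth-scaled summit was thus lower as at other promoters. The efficiency of each precipitation and the level of the mark cannot be told apart with 1 library each.

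The lengths of the fragments were 187 and 176 bp in the H3K27ac lists, and 200 and 186 bp in the H3K4me3 lists. They were taken as the shortest region of each list and were not measured. A shorter fragment lowers the pile-up at the same number of reads, and its part in the ratios was not tested.

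The covered length behaved differently from the summit. The H3K27ac regions at the TSSs covered a median of 1539 bp per gene in siCONT and 1423 bp in siDLEU1 cells, against 1369 and 1059 bp over all genes. The median of the per-gene ratio was 0.886 (quartiles 0.775 and 1.04), against 0.785 over all genes (0.659 and 0.886), 0.798 over the mitochondrial ribosomal protein genes and 0.805 over 20 ribosome biogenesis genes. It was 0.880 over 15 other TOP genes, such as translation elongation factor genes. Regions were wider in siDLEU1 cells at 27 of the 83 genes (32.5%), against 6.27% of all genes. They were narrower by at least 1.5-fold at 5 genes (6.02%), against 26.3%, and wider by as much at 1 gene, RPL23, against 0.307%. With regions within 1 kb joined, the median ratio was 0.987, and the same over all genes was not computed.

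The shares of wider H3K27ac regions were also set beside genes of like rank in siCONT cells. Below percentile 50, 2 of 10 ribosomal protein genes (20%) had wider regions in siDLEU1 cells, against 8.29% of genes in that band. Between 50 and 75 the share was 27.8% of 18, against 5.49%. Between percentiles 75 and 90 in siCONT cells, 15 of 33 ribosomal protein genes (45.5%) had wider regions in siDLEU1 cells, against 5.37% of 3165 genes in that band, with median ratios of 0.986 and 0.805. Above 90 it was 22.7% of 22, against 6.81%, with median ratios of 0.876 and 0.826.

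RPL23, which binds and inhibits MDM2 when in excess, went from 1160 bp in 1 H3K27ac region to 1829 bp in 2. With the canonical TSS alone its ratio was 1.01 in place of 1.58. RPS4X went from 717 to 1009 bp and RPS3 from 1010 to 1270 bp. The smallest ratio was at RPL7L1, which went from 1291 to 295 bp, followed by RPL18, from 1470 to 741 bp, and RPSA, which is also known as a laminin receptor, from 1292 to 665 bp.

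**Figure D3:**
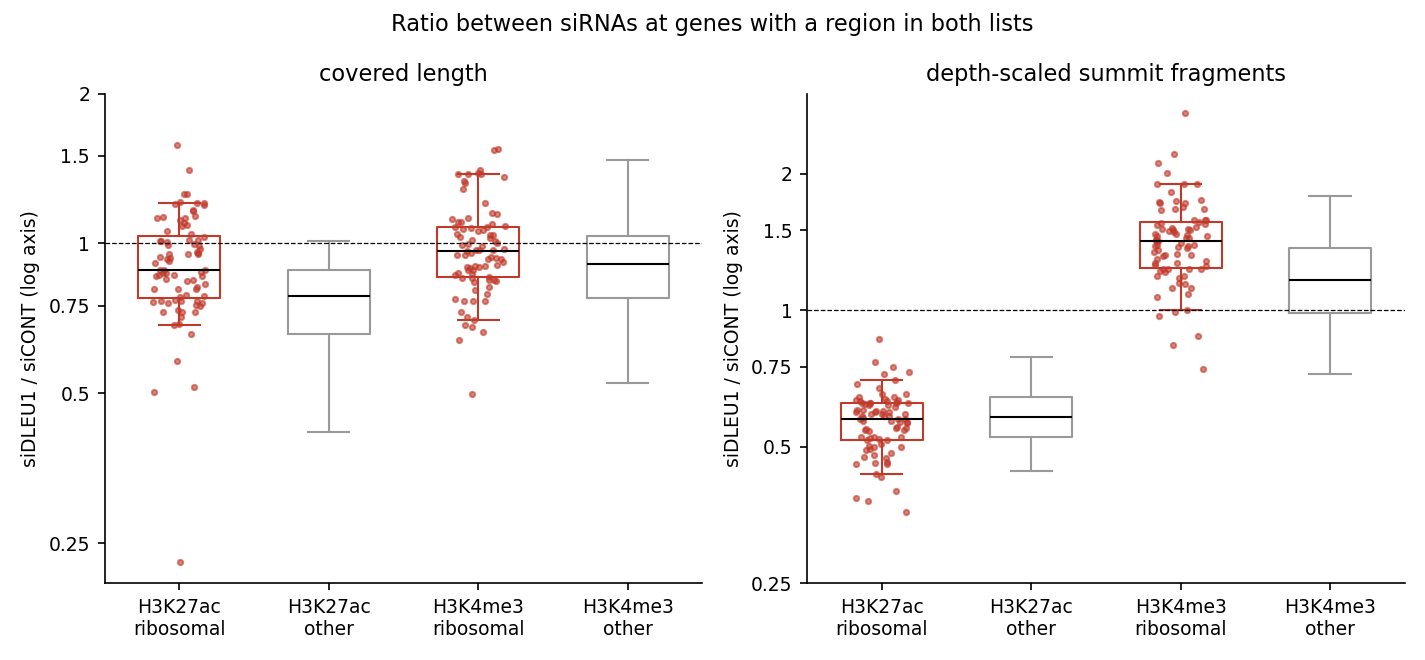
Ratio of siDLEU1 to siCONT at genes with a region in both lists, on log axes, for covered length (left) and depth-scaled summit fragments (right). Boxes give median and quartiles, whiskers the 5th and 95th percentiles, and points the 83 ribosomal protein genes. The H3K27ac length ratio sits higher in the ribosomal protein genes (median 0.886) than in the other genes, and the H3K27ac fragment ratio does not (0.576 against 0.580 over all genes).

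The change in length differed between the sides of the TSS. Within 2 kb upstream of the canonical TSS, H3K27ac regions were present at 69 of 85 genes in siCONT cells, against 53.4% of all genes, and at 56 in siDLEU1 cells, against 42.6%. At the 56 genes with cover in both, the median went from 803 to 506.5 bp, and the ratio was under 1 at 54, against 93% of all genes, with medians of 0.696 and 0.717. Within 2 kb downstream the median went from 960 to 1061 bp over 83 genes, and the ratio was over 1 at 55 (66.3%), against 14.9% of all genes. The median downstream ratio was 1.06, against 0.871 over all genes and 0.951 over the mitochondrial ribosomal protein genes. Over the ribosomal protein genes it was 1.06 in the stricter list, 1.06 with equal numbers of regions and 1.09 with regions within 1 kb joined. These alternatives were not computed over all genes.

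Less cover upstream together with more cover downstream was found at 46 of the 83 genes (55.4%), against 12.3% of the 11192 protein-coding genes with a region in both lists. Less cover on both sides was found at 21, and more on both at 2, RPL10 and RPL31. The shares of all genes in these classes were not computed, so these counts are not set against a background. At RPL10 the cover downstream went from 583 to 1210 bp, at RPS2 from 798 to 1249 bp and at RPL12 from 1458 to 1817 bp. At the paralogs RPL7L1 and RPL39L it went from 949 to 295 bp and from 418 to 156 bp. The other paralogs with a region went both ways. Downstream cover went from 1218 to 1240 bp at RPL22L1 and from 1058 to 1122 bp at RPL36AL. It went from 719 to 707 bp at RPL26L1 and from 931 to 682 bp at RPS27L. The siDLEU1 H3K27ac library was the deeper one, and the part of depth in the downstream cover was not tested.

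**Figure D4:**
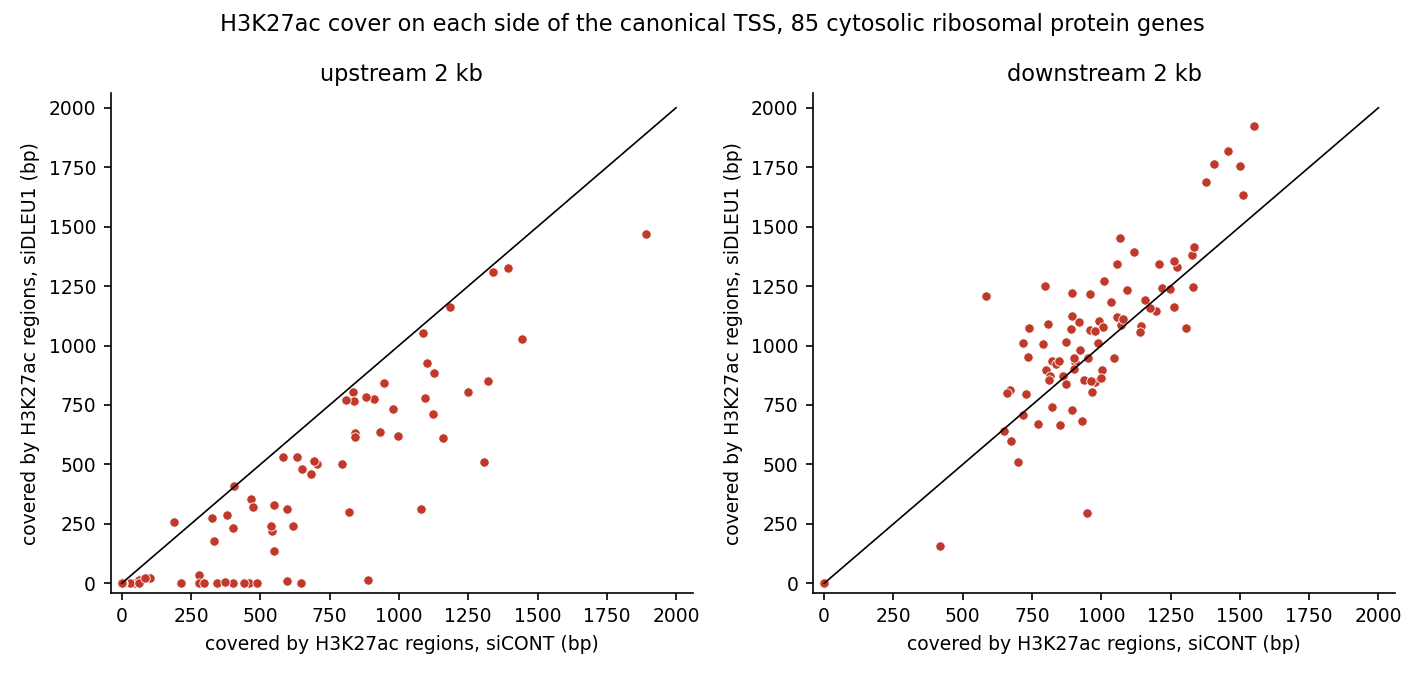
Base pairs covered by H3K27ac regions within 2 kb upstream (left) and downstream (right) of the canonical TSS in siCONT cells (x axis) and siDLEU1 cells (y axis), 1 point for each of the 85 genes, with the line of equal cover. Upstream nearly all points lie on or below the line, and downstream 55 lie above it.

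The canonical TSS itself lay inside an H3K27ac region at 53 of 85 genes in siCONT cells, against 44% of all genes, and at 27 in siDLEU1 cells, against 28.7%. No gene gained (0.712% of all genes without it in siCONT cells) and 26 of the 53 lost the cover of the TSS (49.1%), against 35.8% of all genes with a covered TSS and 22.2% of the mitochondrial ribosomal protein genes. At 17 of these 26 genes a region remained on each side of the TSS within 1 kb (42.6% of all 3123 genes that lost the cover), and at 9 only downstream (48.5%). Where a downstream region remained, it began a median of 48 bp after the TSS (range 2 to 525 bp). RPSA, RPL14, RPL37A, RPL39, RPS10, RPL12 and RPS28 were among the 26. With regions within 1 kb joined, the counts were 68 and 55 genes, so the drop was smaller.

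More genes had 2 or more H3K27ac regions in siDLEU1 cells. In siCONT cells 31 genes had 2 or more regions within 1 kb of a TSS (39.3% of all genes with a region) and in siDLEU1 cells 43 (44.5%). These counts include regions at other annotated TSSs of a gene, so they do not measure the splitting of a region. The strongest summit lay a median of 345 bp downstream of the canonical TSS in siCONT and 342 bp in siDLEU1 cells, against 222 and 231 bp over all genes. It was downstream at 74 and 68 of the 83 genes, against 81.2% and 81.9% of all genes with a region. The summit moved from downstream to upstream at 6 genes, against 4.69% of all genes, and in the other direction at 0, against 4.79%.

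**Figure D5:**
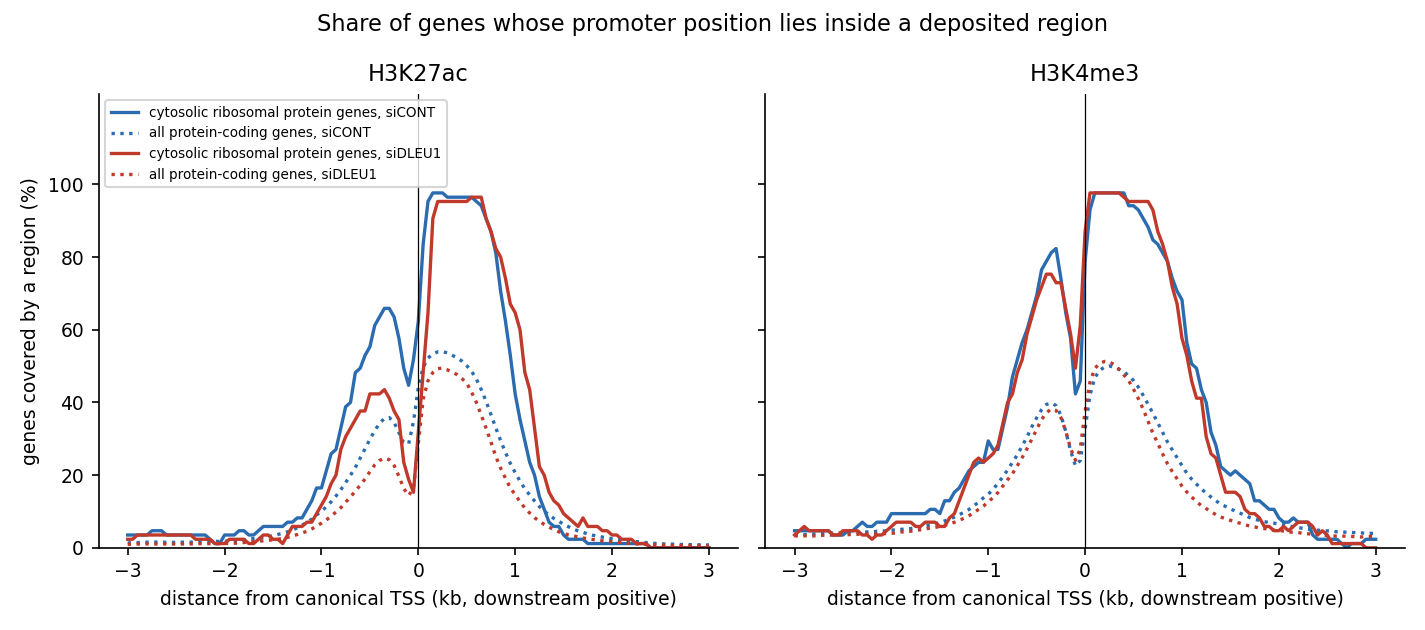
Share of genes (y axis, %) with a region at each distance from the canonical TSS (x axis, kb, downstream positive), for H3K27ac (left) and H3K4me3 (right), siCONT in blue and siDLEU1 in red. Solid lines are the 85 ribosomal protein genes and dotted lines all protein-coding genes. The highest H3K27ac share upstream went from 65.9% to 43.5% in the ribosomal protein genes, and the downstream edge moved outward.

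The H3K4me3 percentile was higher in siDLEU1 cells at 63 of the 83 genes (75.9%), against 52.5% of all genes, and the median change was 5.19 points, against 0.37 points over all genes. The stricter list gave 11.4 points over the ribosomal protein genes and was not computed over all genes. The percentile was higher by 10 points or more at 23 genes (27.7%), against 18.6%, and lower by as much at 3 (3.61%), against 18.5%. Missing siDLEU1 regions again count as 0. Among all genes with a region in both lists, 1949 of 11917 were lower by as much. Genes over percentile 90 numbered 34 in siCONT cells (33.4% of all genes with a region) and 58 in siDLEU1 cells (36.6%). The median change was 4.44 points in large-subunit and 7.59 points in small-subunit genes. It was 3.68 points in the mitochondrial ribosomal protein genes, 1.71 in the other TOP genes and 2.69 in the ribosome biogenesis genes.

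Summit fragments of H3K4me3 gave the same picture. The median was 109 in siCONT and 127 in siDLEU1 cells, with ranges of 45 to 234 and 42 to 230. A single gene with 109 fragments has an exact 95% Poisson interval of 89.5 to 131, and one with 127 of 106 to 151. Scaled to depth the medians were 3.83 and 5.69. The ratio was over 1 at 78 of 83 genes (94%), against 72.9% of all genes, and at 32 of 32 small-subunit genes. Its median was 1.42 (quartiles 1.24 and 1.56), against 1.17 over all genes (0.985 and 1.37) and 1.29 over the mitochondrial ribosomal protein genes. Over the other TOP genes it was 1.41. The ratio was up at least 1.5-fold at 30 genes (36.1%), against 15% of all genes, and down as much at 0, against 3.14%. Summed over all regions of a gene, the median ratio was 1.29.

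The largest rises in H3K4me3 percentile were at RPSA, RPL17, RPL26, RPL14 and RPS21. RPSA went from 71.1 to 96.9 with 61 and 130 summit fragments, a depth-scaled ratio of 2.72. RPL14 went from 70.4 to 93.0 with 60 and 104 fragments, a ratio of 2.21. RPL17, which lines the peptide exit tunnel, went from 59.7 to 85.4 with 47 and 78, a ratio of 2.11. At each of these 3 genes the local background stayed at the floor of its list. RPS21 went from 76.3 to 97.5 with 92 and 145 fragments, a ratio of 2.01, while the background fell from 1 to 0.558 input fragments. RPL26, known to bind p53 mRNA, went from 65.7 to 91.2 with 109 and 110 fragments, a depth-scaled ratio of 1.29. Its background fell from 2 to 0.670 input fragments.

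Only RPL39L, RPL23 and RPS10 fell by 10 points or more in H3K4me3. RPL39L went from 66.1 to 43.7 with 72 and 42 fragments, a depth-scaled ratio of 0.743. RPL23 went from 96.2 to 81.2 with 145 and 100, a ratio of 0.879, but its strongest regions in the 2 lists did not overlap. RPS10 went from 91.7 to 77.6 with 111 and 130 fragments, a ratio of 1.49, while the background rose from the floor to 2 input fragments. Of the 23 genes that rose by 10 points or more, 11 had a background at least 1.5-fold lower, against 50.4% of all genes that rose so. Their median fragment ratio was 1.69, against 1.5 over all genes that rose so. Among the 57 genes within 10 points the median fragment ratio was 1.36, against 1.17 among all genes within 10 points.

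Set beside genes of like rank, the difference in fragment ratio was smallest at the top. Between percentiles 50 and 75 in siCONT cells, the median H3K4me3 fragment ratio was 1.59 over 13 ribosomal protein genes against 1.20 over 2774 genes. Between 75 and 90 it was 1.5 over 36 against 1.18, and above 90 it was 1.32 over 34 against 1.14.

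The length of the H3K4me3 regions changed less. The median ratio was 0.967 (quartiles 0.855 and 1.08), against 0.908 over all genes. Regions were wider in siDLEU1 cells at 34 genes (41%), against 30.8%. They were narrower by at least 1.5-fold at RPS3, RPS24 and RPL39, against 12.5% of all genes, and wider by as much at RPL26L1 and RPS2, against 4.74%, with RPS23 next at a ratio of 1.40. Cover within 2 kb had median ratios of 0.971 upstream and 0.972 downstream, so the shift between the sides seen for H3K27ac was not seen for H3K4me3.

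The canonical TSS lay inside an H3K4me3 region at 67 of 85 genes in siCONT cells, against 32.8% of all genes, and at 74 in siDLEU1 cells, against 37.6%. It was gained at 8 of the 18 other genes, RPLP1, RPL9, RPS4X and RPL39L among them, against 11.5% of all 13318 genes with an uncovered TSS. Most of those 13318 genes had no H3K4me3 region within 1 kb of the canonical TSS, so these shares do not compare like genes. Cover of the TSS was lost at 1 gene, RPS28, against 8.84% of all genes with a covered TSS. Genes with 2 or more H3K4me3 regions numbered 53 in siCONT cells (61.7% of all genes with a region) and 42 in siDLEU1 cells (55.5%). The strongest H3K4me3 summit lay downstream of the TSS at 53 of 83 genes in siCONT cells, against 64.9% of all genes with a region, and at 63 in siDLEU1 cells, against 68.5%. It moved from upstream to downstream at 12 genes, against 9.27% of all genes, and from downstream to upstream at 2, against 5.67%. Over the 85 canonical TSSs, fewer were thus covered by H3K27ac and more by H3K4me3 in siDLEU1 cells.

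Among the 8 genes named as paralogs, 6 had regions, and in siCONT cells 4 of these had lower percentiles in both marks than the genes they are named for. In siCONT cells RPL39L, which is expressed in germ cells and some tumours, stood at percentile 53.9 for H3K27ac and 66.1 for H3K4me3, and RPL39 at 87.6 and 91.4. In siDLEU1 cells RPL39L stood at 25.1 and 43.7, and RPL39 at 53.8 and 96.2. RPL7L1 stood at 34.8 and 75.6 in siCONT cells against 89.96 and 99.3 for RPL7. RPS27L, a p53 target gene, stood at 45.1 and 82.1 against 80.1 and 83.1 for RPS27. RPL26L1 stood at 57.0 and 51.5 against 78.2 and 65.7 for RPL26. By summit fragments the order of this pair was the reverse for H3K27ac, with 147 fragments at RPL26L1 and 105 at RPL26.

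RPL36AL and RPL22L1 did not follow this order. RPL36AL, which shares its promoter with MGAT2, stood at 93.9 for H3K27ac and 93.2 for H3K4me3, and RPL36A at 18.9 and 51.2. RPL22L1, the paralog with a TOP start, stood at 74.1 and 93.5, and RPL22 at 98.9 and 81.0.

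FAU and RACK1, ribosomal proteins with other symbols, had regions of both marks in both conditions. FAU went from percentile 98.3 to 99.6 in H3K27ac and from 92.1 to 97.5 in H3K4me3, and RACK1 from 82.8 to 64.9 and from 97.1 to 93.3.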

How the data were processed

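ChIP-seq with antibodies to H3K27ac and H3K4me3 was done on HSC3 cells, 72 h after transfection with siCONT or siDLEU1. Per the labels and the study's methods, reads from an Ion Proton were aligned by the authors with bowtie2 (hg19), and MACS2 peaks were called library by library. Versions and settings are not given in the sources used here. The fold ratio in the deposited lists is enrichment at the summit over a local background, with a constant added to both. MACS2 also gave each deposited peak its −log10 p and its −log10 q. Input was sequenced for both siRNAs (2 libraries, not analysed here on their own).

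The analysis was limited to chromosomes 1 to 22 and X. Positions were compared with GENCODE 44 mapped to GRCh37, the build of the files, and RefSeq tables of another build were not used. A gene had a region if one overlapped the 1 kb before or after one of its TSSs (695 TSSs for 85 genes, a median of 8 per gene against 5 per protein-coding gene) by at least 1 bp. The strongest region by fold was ranked within its list. Covered length was summed over all regions of a gene. Summit fragments, local background and reads were recovered from fold and p, which MACS2 computes from whole fragments. One solution was found for 100% of peaks. The number of reads rests on an assumed genome of 2.7 Gb and on a fragment length taken from the shortest region of each list. The recovery and the overlap were tested on simulated data. Python 3.11.15, pandas 2.3.3, NumPy 2.4.6 and SciPy 1.17.1 were used.

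Alternatives were a stricter list (−log10 q of 10 or more), joining of regions up to 1 kb apart, windows of 3 and 5 kb, the canonical TSS alone, equal numbers of regions, ranks by p or by fragments, fragments summed over regions, and overlapping strongest regions only. Those on the sides of the TSS and on single genes were chosen after seeing the data. All alternatives were computed for the ribosomal protein genes only, with no value over all genes beside them. The genes and the lists they are compared with were chosen with earlier results of these data known. Genes were named if they lacked a region, had the 5 largest rises or falls or the 3 highest percentiles or the 3 extreme width ratios of a mark, were paralogs or their namesakes, had the 3 shortest divergent gaps, or were RPLP0, RPLP1, RPLP2, RPSA or RPS27A. Genes named outside this rule (RPL31, RPS28 among TSSs lost, FAU and RACK1) were chosen by their place in a count or a list. GAS5 and SNHG1, which are not protein-coding, and PECAM1 were not used in the lists. One gene of a list and one start sequence are not reported here.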

Additional observations from a re-analysis of the deposited data

How the results depend on the processing

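No paired analysis was possible because each siRNA and mark had a single library. With equal numbers of regions, the median H3K27ac percentile change reversed, from -1.24 to 0.35 points. With −log10 q of at least 10, it was -8.00 points, the median H3K4me3 change was 11.4 points, and the median siCONT percentiles were 74.6 for H3K27ac and 71.3 for H3K4me3. With regions within 1 kb joined, those percentiles were 75.1 and 80.7, the median H3K4me3 change was 7.51 points, the median H3K27ac width ratio 0.987 and upstream ratio 0.890, and 55 canonical TSSs lay inside an H3K27ac region in siDLEU1 cells in place of 27. Summed over regions, the median H3K4me3 fragment ratio was 1.29. Each of the other 86 values stayed within 1.5-fold of its count or within the interval of its median over genes. Among them the siCONT canonical TSSs inside an H3K27ac region ran from 52 to 68, and the median H3K27ac percentile change from -2.86 to -0.37 points. The cause of the shifts was not tested. Of the values of single genes, 77 shifted in size without reversing and 124 stayed close to the main setting. Single genes reversed in 7 cases. Ranked by fragments, the H3K27ac percentile change was -12.4 points at RPL36A, -1.32 at RPS27, -12.5 at RPS3 and 3.05 at RPSA, and the H3K4me3 change was 7.40 at RPS10. It was -0.44 for H3K27ac at RPL36A with −log10 q of at least 10, and 1.70 at RPLP0 with a window of 3 kb.

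Median summit counts near 100 limit the precision of single genes, and the local background lay between its floor and 3 input fragments at the summits named. With 1 library each, precipitation efficiency and the level of a mark cannot be told apart.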
